A study of Rattus norvegicus with 164 samples.

Results

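Voltage-gated sodium and calcium channel genes were followed across 130 RNA-seq libraries labelled as prelimbic cortex, a medial prefrontal area, from heterogeneous stock rats, an outbred laboratory population. The genes were found by name in a table of 38354 genes. Of 40 genes with a matching sodium channel (Scn) or calcium channel (Cacna1, Cacna2d, Cacnb, Cacng) symbol, 32 were autosomal and had a mean level of at least 1, where a level is log2(CPM + 1) and CPM is the estimated count scaled to a library total of 1000000. The genes were thus chosen by name and selected on their measured mean level over the 130 libraries, and the channel genes were proposed after earlier results of these data. Of the other 8, Scn4b was left out by the rule, Cacna1f lies on the X chromosome, and 6 had a mean below 1. Just below that limit were Scn11a at a mean of 0.71, Cacna1s at 0.58 and Scn7a at 0.56, and just above it Scn4a at 1.05, Cacng6 at 1.22 and Scn9a at 2.06. The 32 genes comprised 7 sodium channel alpha subunits, 3 sodium channel beta subunits, 8 calcium channel alpha1 subunits, 3 alpha2delta subunits, 4 calcium channel beta subunits and 7 gamma subunits, on 10 chromosomes.

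Sodium channel alpha subunits form the pore that opens at the start of an action potential, and their beta subunits adjust gating and anchor the channel in the membrane. Calcium channel alpha1 subunits form the calcium pore and set the channel type: P/Q, N and R types act mainly at synapses, L types couple activity to gene expression, and T types open near rest and support burst firing. The alpha2delta and beta subunits bring the calcium channel to the membrane, whereas most gamma subunits of the brain are known for another role, as auxiliary subunits of AMPA-type glutamate receptors.

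Each library came from poly(A) RNA of 1 sample, and the labels give no strain founder, genotype, treatment, age or sex. The labels divide the libraries by the kind of animal identifier alone: 68 carried a decimal number, 51 an identifier starting with E21DCD, and 11 an E21DCD identifier given to a library after a genotype check, called reassigned here. Another 34 samples that the labels mark as removed, 33 of them for want of a matching genotype, were not analysed here. What separates the identifier series in the animals or in the laboratory work is not given in the sources used here.

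Not every library fitted its tissue label, and this was read from measured levels. Drd2, the D2 dopamine receptor of striatal projection neurons, lay between 7.25 and 7.90 in 11 libraries, all with decimal identifiers, and at 4.65 or below in the others. In these 11 striatal-like libraries the vesicular glutamate transporter Slc17a7, which defines cortical projection neurons, ranged from 2.75 to 8.83 against 10.43 to 11.20 in the cortical ones. Of the tested striatal markers, 7 of 7 lay above the cortical range, among them Drd2, which set the class. Gad2, which makes the transmitter GABA, lay between 2.37 and 4.27 in 7 further libraries (1 decimal, 6 E21DCD) and between 5.14 and 6.52 in the remaining 112 cortical libraries. In 6 of the 7 low-Gad2 libraries Slc17a7 lay within the cortical range, from 10.84 to 11.12, and in decimal replicate 15 it was below it, at 9.58. Total estimated counts, in units of 1000000, ran from 16.9 to 55.95 in the cortical, 15.1 to 37.7 in the low-Gad2 and 18.9 to 44.98 in the striatal-like libraries. One low-Gad2 library, decimal replicate 15, gave 15.1% of its counts to a single gene, against at most 1.08% in the cortical class. E21DCD replicates 30 and 49 also exceeded that cortical limit, at 1.46% and 1.96%. Genes with a count above 0 numbered 20516 to 24328 in the low-Gad2 libraries (median 22800). In the cortical libraries they numbered 22643 to 26540 (median 24218.5). The part of library quality in the low-Gad2 differences was not tested. Since the classes were drawn from measured levels, differences between them are described below with no test.

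Promoter sequence was available for some of these genes and is shown for 3 of them because their windows differ widely in base composition. RefSeq promoters of assembly GRCr8 matched 21 of the 32 genes. The end position listed for each of the 32 genes in the deposited table was an end of its RefSeq gene on that assembly. For 5 of the 21 genes the promoter's start was that same position. Of those 5, the 250 bases before the start are given for Scn3a (chr3:70666199-70666448, minus strand), Scn2b (chr8:54322133-54322382, plus strand) and Cacna1d (chr16:5527550-5527799, minus strand), 5′ to 3′ on the gene's strand. Capitals mark GC boxes (GGGCGG or its complement) in Cacna1d and an AP-1 match (TGANTCA) in Scn3a.
Scn3a: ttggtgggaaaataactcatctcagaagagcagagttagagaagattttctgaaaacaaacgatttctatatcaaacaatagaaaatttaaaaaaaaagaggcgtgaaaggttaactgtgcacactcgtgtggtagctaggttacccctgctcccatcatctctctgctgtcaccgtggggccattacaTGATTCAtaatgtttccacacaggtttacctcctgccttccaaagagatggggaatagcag
Scn2b: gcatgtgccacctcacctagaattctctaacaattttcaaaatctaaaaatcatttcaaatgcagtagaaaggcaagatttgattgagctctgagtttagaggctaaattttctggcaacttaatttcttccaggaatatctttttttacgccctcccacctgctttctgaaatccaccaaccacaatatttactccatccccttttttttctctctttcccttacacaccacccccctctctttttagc
Cacna1d: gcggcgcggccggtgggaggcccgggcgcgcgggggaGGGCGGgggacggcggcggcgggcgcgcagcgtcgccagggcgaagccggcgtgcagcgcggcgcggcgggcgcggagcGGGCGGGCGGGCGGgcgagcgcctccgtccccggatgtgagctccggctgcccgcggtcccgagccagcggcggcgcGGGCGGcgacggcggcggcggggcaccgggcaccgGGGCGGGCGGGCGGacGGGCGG

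The window of Cacna1d was 88.8% G and C with 9 GC boxes, that of Scn3a 41.6% and that of Scn2b 38.8% with none. Over the full 300-base promoters, searched on both strands, a GC box was found in 11 of the 21 genes and in 34.9% of all 27457 promoters. A TATAAA match was found in 1 of 21 (Cacng2) against 14.3% of all promoters, and an AP-1 match in 1 of 21 (Scn3a) against 7.33%. The cyclic AMP element TGACGTCA (1.91% of all promoters) and the E-box CACGTG (6.65%) were found in 0 of 21. These matches describe letters in the windows, not binding.

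The 32 genes were on the whole lower in the low-Gad2 libraries, and the pore-forming subunits most of all. The median difference from the cortical class was -0.77 on the log2 scale over the 32 genes, with 25 lower and 7 higher, against -0.12 over all 15150 genes tested, of which 9008 were lower. For 8 of the 32 genes the whole low-Gad2 range lay below the whole cortical range, as it did for 6.26% of all genes tested. None of the 32 lay above it, against 1.59% of all genes. In bulk tissue, fewer cells of a type and less RNA per cell cannot be told apart.

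**Figure D1:**
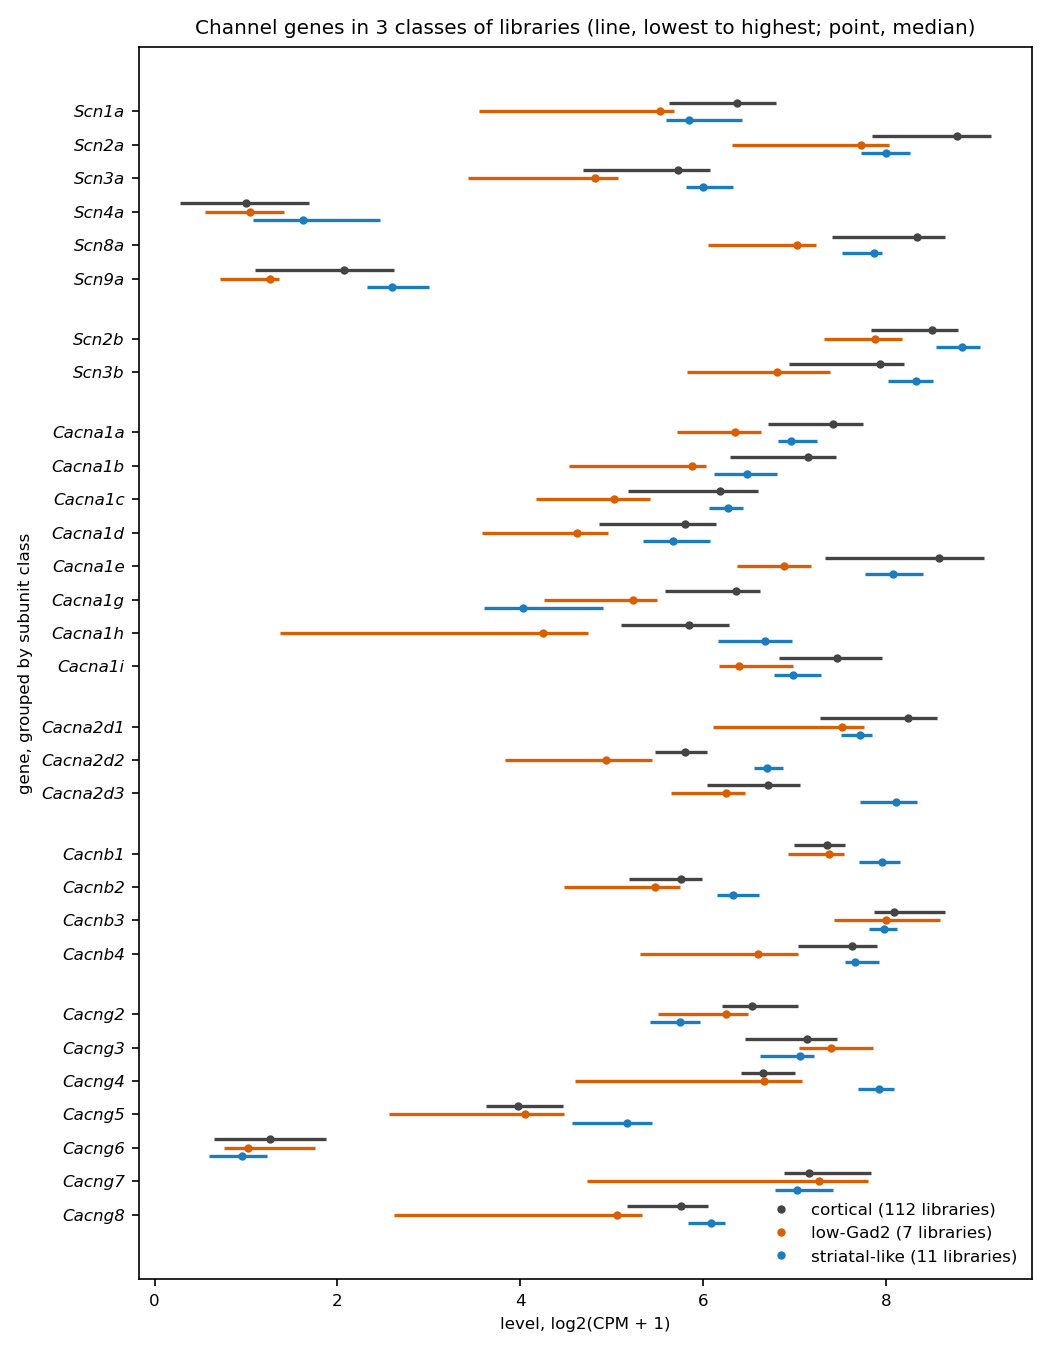
Level of 30 of the 32 channel genes, as log2(CPM + 1) on the horizontal axis, in 112 cortical, 7 low-Gad2 and 11 striatal-like libraries; lines run from the lowest to the highest library and points mark medians. The low-Gad2 lines of Cacna1e and Scn8a end left of the cortical lines, and the striatal-like line of Cacna1g lies left of its cortical line and overlaps its low-Gad2 line.

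All 8 calcium channel alpha1 genes had lower medians in the low-Gad2 libraries, with a median difference of -1.17. Cacna1e, the R-type pore, ranged from 7.33 to 9.07 in the cortical libraries with a median of 8.58. In the low-Gad2 libraries it ranged from 6.37 to 7.17 with a median of 6.88, a difference of -1.70, or 0.309 times the cortical level on the (CPM + 1) scale. No low-Gad2 library reached the lowest cortical one. Cacna1b, the N-type pore of presynaptic terminals, had a cortical range of 6.29 to 7.45 (median 7.15) and a low-Gad2 range of 4.53 to 6.03 (median 5.87). Cacna1a, the P/Q-type pore that drives transmitter release, ranged from 6.71 to 7.75 (median 7.42) in cortical and from 5.71 to 6.63 (median 6.35) in low-Gad2 libraries. The ranges of both genes were apart, so the 3 high-voltage types linked to synapses were each lower in 7 of 7 low-Gad2 libraries than in any cortical one.

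The T-type pores followed the same order. Cacna1h ranged from 5.10 to 6.28 (median 5.84) in the cortical libraries and from 1.37 to 4.74 (median 4.25) in the low-Gad2 ones. Its 2 lowest libraries were decimal replicate 15 at 1.37 and E21DCD replicate 49 at 2.81, and the other 5 lay between 4.21 and 4.74. Cacna1g ranged from 5.59 to 6.62 (median 6.35) in cortical and from 4.26 to 5.49 (median 5.23) in low-Gad2 libraries, again without overlap. Cacna1i had medians of 7.46 and 6.39, and 5 of its 7 low-Gad2 libraries were below the lowest cortical one. The L-type genes Cacna1c and Cacna1d differed by -1.15 and -1.19, with 5 and 6 of 7 low-Gad2 libraries below the cortical range.

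Among sodium channel alpha genes, 6 of 7 had lower low-Gad2 medians, with a median difference of -0.84. Scn8a, a channel concentrated at the axon initial segment, ranged from 7.41 to 8.64 (median 8.34) in cortical and from 6.05 to 7.23 (median 7.03) in low-Gad2 libraries, a difference of -1.31 with no overlap. Scn2a, an axonal channel of excitatory neurons, had medians of 8.77 and 7.72, and its ranges overlapped. Scn1a, the channel most linked to fast-spiking inhibitory neurons, had medians of 6.37 and 5.53, with 6 of 7 low-Gad2 libraries below the cortical range. Scn3a, most abundant in the developing brain, had medians of 5.73 and 4.81, and Scn9a, best known from sensory neurons, 2.08 and 1.27. Scn4a, the skeletal muscle channel, was near 1 in both classes, with medians of 1.00 and 1.04. These alpha genes share similar sequence, so a division of reads between them by the estimation step cannot be told apart from expression.

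The accessory subunits were less uniform. The 4 calcium channel beta genes had a median difference of -0.19, and the 7 gamma genes of 0.01. Within the beta genes Cacnb4 stood apart, with medians of 7.63 in cortical and 6.60 in low-Gad2 libraries and no overlap, whereas Cacnb1 had medians of 7.35 and 7.37. Cacna2d2 ranged from 5.47 to 6.04 (median 5.80) in cortical and from 3.83 to 5.44 (median 4.93) in low-Gad2 libraries, which did not overlap. Cacna2d1, a target of gabapentin, differed by -0.73 and Cacna2d3 by -0.45, both with overlap. Of the gamma genes, Cacng8 was lower by medians, 5.05 against 5.76, and Cacng3 higher, 7.40 against 7.13. Cacng2 differed by -0.29 and Cacng6, near the lower limit of measurement, by -0.25, whereas Cacng4, Cacng5 and Cacng7 differed by 0.01, 0.07 and 0.11. Decimal replicate 15 was the lowest of the 7 libraries for each of Cacng2, Cacng4, Cacng5, Cacng7 and Cacng8, and the gap was widest for Cacng7, at 4.73 against 7.07 to 7.79 in the other 6. The beta subunits Cacnb2 and Cacnb3 differed by -0.29 and -0.09, with overlap.

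The sodium channel beta subunits Scn3b and Scn2b had lower medians: Scn3b at 6.80 against 7.93, and Scn2b at 7.88 against 8.49. Their ranges overlapped with the cortical ones, with 5 and 3 of 7 low-Gad2 libraries below.

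Genes that work beside the channels were also mostly lower. The partner lists covered the axon initial segment, FGF homologous factors, release-site proteins, RGK and Stac regulators, calmodulins and the sodium leak channel complex. Of 34 tested partner genes, 29 had lower low-Gad2 medians, as did 9008 of all 15150 genes tested and 1981 of the 2310 over 100 kb. The median difference was -0.50, against -0.12 over all genes tested. The spans of the partner genes were not compared. The 8 genes of the axon initial segment list, not all of which are anchors, were all lower, with a median difference of -0.999. They included Ank2, an ankyrin of the axonal membrane skeleton, which differed by -1.55 with no overlap, and Nrcam, an adhesion molecule of the initial segment, by -1.22. Erc1, a protein of presynaptic release sites, differed by -1.05 with no overlap. The 6 tested RGK and Stac regulators had a median difference of 0.14.

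**Figure D2:**
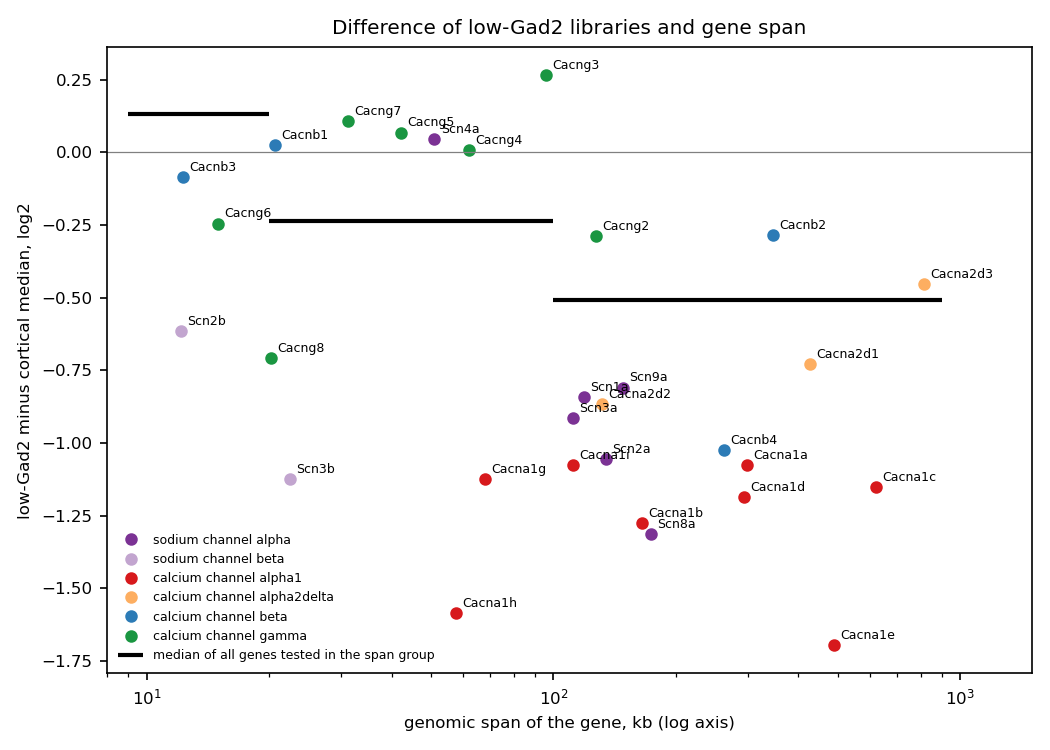
Difference between low-Gad2 and cortical medians (log2, vertical axis) against the genomic span of the gene in kb (log horizontal axis); each point is 1 of 30 channel genes, coloured by subunit, and black lines mark the median of all genes tested in the span group. All 17 channel genes longer than 100 kb lie below 0.

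Gene span moved with these differences. Among all genes tested, the median low-Gad2 difference was 0.13 for 6639 genes spanning up to 20 kb, -0.24 for 6201 genes over 20 and up to 100 kb, and -0.51 for 2310 longer genes. In the same order the channel genes gave -0.17 (4 genes), 0.01 (11 genes) and -1.03 (17 genes), and 17 of 17 of the longest were lower, as were 1981 of the 2310 genes of that span. Cacna2d3, at 814 kb the longest, differed by -0.45, and Cacna1g, at 68.04 kb, by -1.12. The part of gene span in the low-Gad2 difference was not tested. Beside it, Mbp had a median of 11.64 in low-Gad2 and 10.60 in cortical libraries, and 6 of 7 oligodendrocyte markers were higher by medians, with summed levels of 11.49 to 13.65 against 10.09 to 14.33. Pvalb had medians of 5.85 and 5.05, although 4 of the 7 interneuron markers other than Gad2, which set the class, were lower by medians, and the summed levels of those 7 were 9.09 to 9.96 against 8.80 to 9.52. The part of these markers in the difference was not tested.

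With counts scaled by the median of ratios in place of the library total, 5 of the 8 genes still did not overlap (Cacna1b, Cacna1e, Cacna1g, Cacna1h and Scn8a). Over all genes tested, the count below the cortical range went from 949 to 627 with that scaling. The Cacnb3 difference turned from -0.09 to 0.10. That scaling moved the median of all genes by -0.15 to 0.79 across libraries. With the Gad2 limit at 4, the low-Gad2 libraries above it, with Gad2 up to 4.27, joined the cortical class. None of the 8 genes stayed apart. Under that limit 1 channel gene lay below the cortical range, Cacng8, which is not among the 8, beside 297 of all genes tested. The low-Gad2 differences of Cacng4 and Scn4a turned from 0.01 and 0.04 to -0.10 and -0.26. Without decimal replicate 15 the same 8 channel genes lay below the cortical range and 0 above it. Over all genes tested, the count below it went from 949 to 984 and the count above it from 241 to 480.

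The striatal-like libraries showed a different pattern, with genes in both directions. The median difference from cortical was -0.02 over the 32 genes, with 16 lower and 16 higher, against 0.04 over all genes tested. Cacna1g and Cacng2 had ranges wholly below the cortical range, as did 7.1% of all genes tested. Cacna2d2, Cacna2d3, Cacnb1, Cacnb2, Cacng4 and Cacng5 had ranges wholly above it, as did 5.15% of all genes. The same 2 and 6 genes did not overlap when counts were scaled by the median of ratios, beside 1232 below and 695 above among all genes tested.

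Cacna1g and Cacna1h, both T-type pores, lay on opposite sides. Cacna1g ranged from 3.60 to 4.90 (median 4.02) in the 11 striatal-like libraries against 5.59 to 6.62 in cortical ones, a difference of -2.33 in medians, or 0.199 times. Cacna1h ranged from 6.16 to 6.97 (median 6.68) against 5.10 to 6.28 (median 5.84), and 10 of 11 libraries exceeded the highest cortical one. Cacna1i had medians of 6.98 and 7.46. Within the T-type genes, Cacna1g gave 6.20% of estimated counts (range 5.03 to 11.2) in striatal-like and 25.3% (20.3 to 30.5) in cortical libraries. Cacna1h gave 42.2% (33.0 to 45.4) and 18.1% (13.1 to 21.6), so neither share overlapped between the classes. Estimated counts were not divided by transcript length, so such shares compare a gene across libraries, not genes with each other.

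Slc17a7 moved with Cacna1g among most of the striatal-like libraries. The 4 libraries with the highest Slc17a7, from 7.93 to 8.83, had Cacna1g at 4.49 to 4.90. The 7 others, with Slc17a7 from 2.75 to 6.73, had Cacna1g at 3.60 to 4.30, the last in decimal replicate 64, whose Slc17a7 was the lowest. The part of cortical tissue in the Cacna1g levels of these libraries was not tested.

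**Figure D3:**
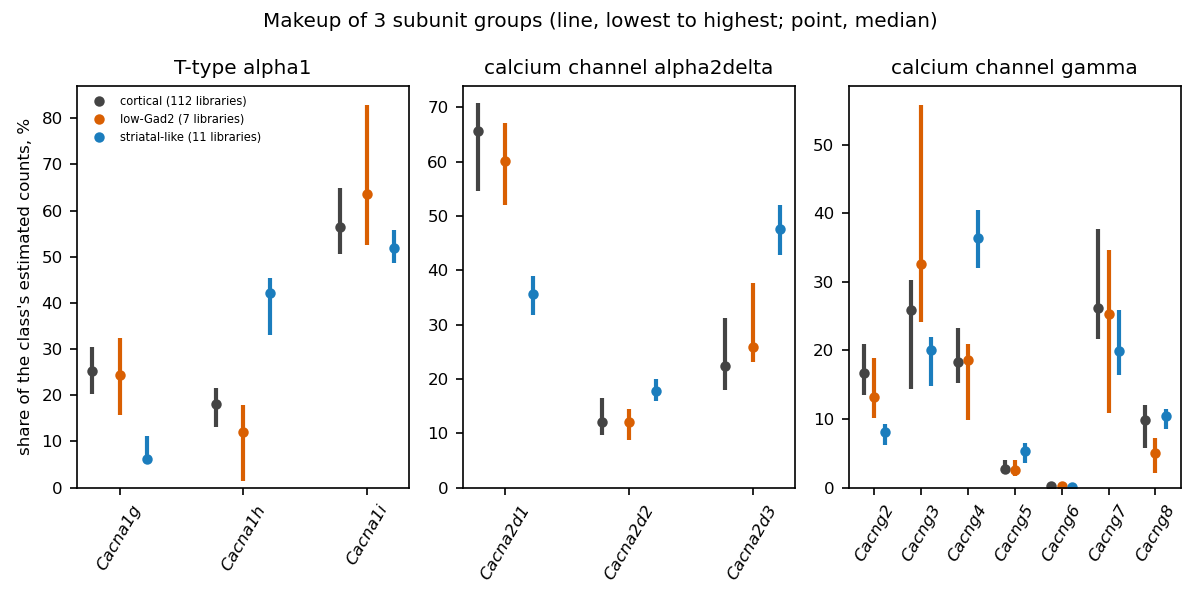
Share of each gene in the estimated counts of its subunit group (percent, vertical axis) for T-type alpha1, alpha2delta and gamma genes in cortical, low-Gad2 and striatal-like libraries; points are medians and lines run from the lowest to the highest library. Cacna1h, Cacna2d3 and Cacng4 take larger shares in striatal-like libraries, and Cacna1g, Cacna2d1 and Cacng2 smaller ones.

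The alpha2delta genes also lay on opposite sides. Cacna2d3 ranged from 7.71 to 8.34 (median 8.10) in striatal-like libraries against 6.03 to 7.06 (median 6.71) in cortical ones, 2.63 times the cortical level. Cacna2d2 ranged from 6.55 to 6.86 (median 6.69) against 5.47 to 6.04. Cacna2d1 had the opposite sign, with medians of 7.71 and 8.24. Among the 3 genes, Cacna2d3 gave 47.6% of counts in striatal-like and 22.5% in cortical libraries, and Cacna2d1 gave 35.6% and 65.6%.

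The gamma subunits, most of which serve AMPA receptors, differed in direction. Cacng4 ranged from 7.69 to 8.08 (median 7.92) in striatal-like and from 6.41 to 7.00 (median 6.65) in cortical libraries, 2.42 times by medians. Cacng5 ranged from 4.56 to 5.43 (median 5.17) against 3.63 to 4.46 (median 3.98). Cacng2, known as stargazin, ranged from 5.42 to 5.96 (median 5.74) against 6.20 to 7.04 (median 6.53). Cacng3 and Cacng7 had differences of -0.08 and -0.13, and Cacng6 of -0.31, with overlapping ranges. Cacng8 had a difference of 0.33, and 8 of 11 libraries lay above its cortical range.

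The other alpha1 genes had smaller differences with overlapping ranges: -0.67 for Cacna1b, -0.50 for Cacna1e, -0.46 for Cacna1a, -0.13 for Cacna1d and 0.09 for Cacna1c.

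Of the calcium channel beta subunits, Cacnb1 ranged from 7.71 to 8.15 in striatal-like and from 6.99 to 7.55 in cortical libraries. Cacnb2 ranged from 6.15 to 6.61 against 5.19 to 5.98. Cacnb3 and Cacnb4 had medians within 0.10 of the cortical ones, and the sign for Cacnb4 changed with the scaling, from 0.04 to -0.03.

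Of the sodium channels, no gene had ranges apart. Scn2a had a striatal-like range of 7.72 to 8.26 (median 8.00) and 2 of 11 libraries below the cortical range. Scn8a and Scn1a differed by -0.48 and -0.53. Scn3a had medians of 5.99 in striatal-like and 5.73 in cortical libraries and gave 10.1% of the alpha counts against 5.85%. Scn9a and Scn4a had differences of 0.52 and 0.62, with 5 and 4 of 11 libraries above the cortical range. Scn3b and Scn2b had differences of 0.40 and 0.33.

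Partner genes in the striatal-like libraries also lay on both sides of the cortical range: 7 of 34 below and 2 above, beside the 7.1% and 5.15% of all genes. Above it were Rem2, a small GTPase that inhibits calcium channels, with a difference of 3.19, and Fgf11 at 1.78. Farthest below were Stac2 at -2.12, Nalf1 of the sodium leak channel complex at -1.99 and Rimbp2 of release sites at -1.65. Mbp lay between 12.36 and 13.49 in these libraries, against 8.87 to 13.40 in cortical ones. The part of myelin in these differences was not tested.

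Within the 112 cortical libraries the channel genes varied about as much as other genes. Their median SD was 0.20 against 0.18 for all genes tested, with 0.10 for Cacna2d2, the lowest, and 0.37 for Cacna1e. Tests in this class used limma, a linear model with shared variance, and adjusted p-values over all genes tested with the Benjamini-Hochberg method, calling a gene at an adjusted p under 0.05. Each library is 1 rat sample, so these p-values measure the spread between such samples, part of which may be technical.

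Decimal libraries had lower levels of most channel genes than E21DCD libraries. Of the 32 genes, 18 were lower and 4 higher, beside 15.3% of all 15150 genes lower and 19.5% higher. The median estimate was -0.08 over the 32 genes and 0.01 over all genes. Higher genes included Cacng5 at 0.11 ± 0.04 (SE, adjusted p = 0.0176), Cacng7 at 0.09 ± 0.03 (adjusted p = 0.00597) and Cacng2 at 0.08 ± 0.02 (adjusted p = 0.00559). Cacna1c fell by 0.25 ± 0.05 (adjusted p = 3.42e-05) and Cacna2d1 fell by 0.20 ± 0.04 (adjusted p = 0.000101). Cacna1e fell by 0.28 ± 0.07 (adjusted p = 0.000595) and Scn3a fell by 0.21 ± 0.04 (adjusted p = 0.000141). Of 34 partner genes, 9 were lower and 6 higher, led by Nalf2 at -0.20 and Stac2 at 0.37.

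The calls changed with the libraries entered and with a marker level in the fit. With the 7 low-Gad2 libraries included, 6 of them E21DCD, 1 of the 32 genes was called (Cacng2 at 0.10, adjusted p = 0.0428), beside 9.9% of all genes. With all 130 libraries, striatal-like ones included, 7 were called, beside 29.1% of all genes. With the Mbp level as a covariate, an alternative added after seeing the data, 1 was called (Cacng2 at 0.09, adjusted p = 0.0384), beside 5.83% of all genes. In the same comparison Mbp was higher in decimal libraries by 0.83 (adjusted p = 2.55e-05) and Pvalb by 0.29 (adjusted p = 0.000113), and Gad2 fell by 0.14 (adjusted p = 0.0182). Long genes were more often lower as well: 28.3% of genes over 100 kb, against 16.8% of those over 20 and up to 100 kb and 9.29% of shorter ones. The identifier series and anything that went with it in the laboratory cannot be told apart.

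**Figure D4:**
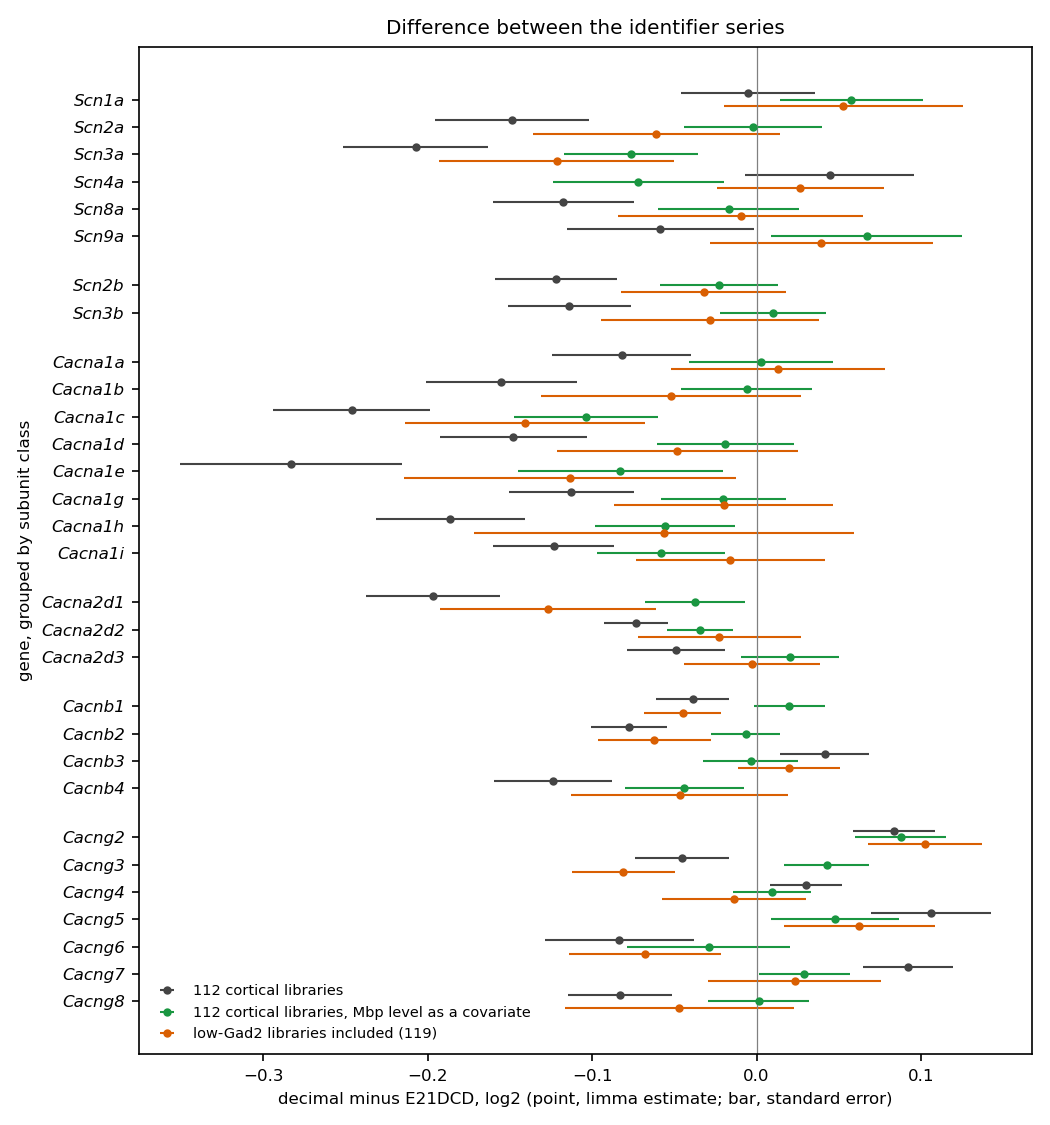
Decimal minus E21DCD difference of 30 channel genes (log2, horizontal axis; points are limma estimates and bars standard errors) in the 112 cortical libraries, in the same libraries with the Mbp level as a covariate, and with the low-Gad2 libraries included (119). Estimates below 0 for Cacna1c and Cacna1e in the first fit move toward 0 with the covariate.

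No channel gene passed the test between reassigned and other E21DCD libraries. Of 15150 genes, 0 were called by limma (1004 had an unadjusted p under 0.05), and among the 32 channel genes 0 passed even without adjustment. Their smallest adjusted p was 0.794.

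Myelin content moved with nearly all channel genes. With the identifier group in the fit, 25 of the 32 genes fell and 5 rose with the Mbp level, beside 27.7% and 26.2% of all 15149 other genes tested. Slopes, in log2 units per log2 unit of Mbp, included -0.24 ± 0.03 for Cacna1e (SE, adjusted p = 6.53e-10), while Cacna2d1 had -0.19 ± 0.02 (adjusted p = 1.25e-19). Cacna1b and Scn2a both had a slope of -0.18. Those that rose included Scn4a at 0.14, Cacng7 at 0.08, Cacng5 at 0.07 and Cacnb3 at 0.05. Cacng2 at -0.005 and Cacng4 at 0.025 did not pass. In the decimal libraries alone 23 of the 32 genes fell and 5 rose, beside 4440 and 3712 of all genes. In the E21DCD libraries alone 20 fell and 1 rose, beside 1944 and 2524 of all genes. There Cacng5 still rose (adjusted p = 0.0129 by limma). Scn4a, Cacng7 and Cacnb3 did not pass (adjusted p = 0.217, 0.705 and 0.0544). Of partner genes, 17 of 34 fell and 6 rose. Gene span moved with these slopes too: 47.6% of genes over 100 kb fell with Mbp. The share was 32.5% of genes over 20 and up to 100 kb and 16.3% of shorter ones. The part of gene span in the Mbp slopes was not tested. Over the same libraries Slc17a7 had a slope of -0.04 (adjusted p = 0.00291) and Gad2 of -0.16 (adjusted p = 5.41e-08).

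The Mbp slope itself differed between the series for 6 of the 32 genes, beside 23.5% of all genes. Cacng4 had a slope of 0.07 in the 56 decimal libraries and -0.06 in the 45 E21DCD libraries, with both passing the test. Scn3b fell with Mbp in both series, at -0.20 and -0.06. Cacng8 had slopes of -0.15 and -0.02, Cacng3 of -0.14 and -0.04, Cacnb1 of -0.10 and -0.02, and Cacng7 of 0.11 and 0.01.

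**Figure D5:**
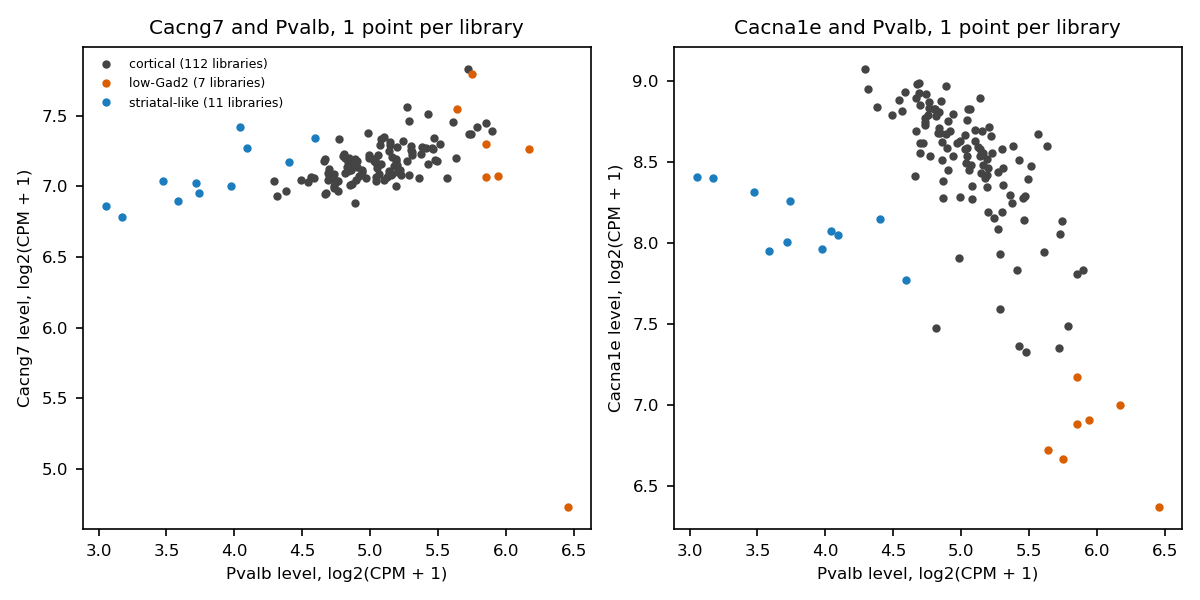
Levels of Cacng7 and Cacna1e (vertical axes, log2(CPM + 1)) against Pvalb level (horizontal axes) with 1 point per library, marked by class. Within the cortical class Cacng7 is higher and Cacna1e lower in libraries with more Pvalb, and the low-Gad2 libraries lie at Pvalb levels of 5.64 to 6.45, with decimal replicate 15 lowest for Cacng7 at 4.73.

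Pvalb, a calcium-binding protein of fast-spiking interneurons, moved with channel subunits in both directions. With Pvalb, 15 of the 32 genes fell and 4 rose, beside 24.4% and 17.6% of all genes. Cacng7 had a slope of 0.28 ± 0.03 (adjusted p = 1.6e-10), Cacnb3 of 0.22 and Cacng2 of 0.16. On the other side Cacna1e had a slope of -0.70 ± 0.08 (adjusted p = 1.68e-11), followed by Scn3a at -0.43 and Scn9a at -0.42. Scn1a, at 0.07 ± 0.06, did not pass (adjusted p = 0.401). With counts scaled by the median of ratios, 16 of the 32 genes were called, 12 lower and 4 higher. Over all genes that scaling gave 3022 higher and 3202 lower, against 2660 and 3690.

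Other interneuron markers did not all move with Pvalb. Gad2 had a slope of -0.41 (adjusted p = 4.82e-07) and Gad1 of -0.10 (adjusted p = 0.0282), while Npy had 0.37 (adjusted p = 1.17e-05) and Sst 0.22 (adjusted p = 0.00443). Gene span moved with the slopes: 49.1% of genes over 100 kb fell with Pvalb, against 29.4% of those over 20 and up to 100 kb and 11% of shorter ones. Of partner genes, 15 of 34 fell and 6 rose, among them Stac2, a calcium channel adaptor, at 0.99. The parts of gene span and of cell makeup in the Pvalb slopes were not tested.

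Tle4, a marker of layer 6, moved with few channel genes. Cacng5 rose with Tle4, with a slope of 0.41 ± 0.07 (adjusted p = 1.01e-05), beside 4.57% of all genes. Cacna1h at -0.43 ± 0.09 (adjusted p = 0.000416), Cacng3 at -0.20 (adjusted p = 0.0209) and Cacna2d3 at -0.20 (adjusted p = 0.0295) fell, beside 4.67% of all genes. Mbp had a Tle4 slope of 1.55 (adjusted p = 0.000182) in the same fit, and its part in these slopes was not tested. In the decimal libraries alone 1 of the 32 genes was called, beside 609 of all 15149 genes. With the low-Gad2 libraries included 23 were called, beside 9024 of all 15149 genes. The slopes of Cacna1h and Cacna2d3 then turned to 0.74 and 0.13. Under median-of-ratios scaling, over all genes, 965 rose and 660 fell with Tle4, against 692 and 708.

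Some channel genes lie side by side, and 10 pairs were less than 1 Mb apart. Their correlations across the 112 cortical libraries were tested with 100000 permutations, two-sided, for which the smallest p is 1e-05, and adjusted over the 10 pairs. Scn3a and Scn2a, 44.7 kb apart, had r = 0.91 (adjusted p = 2e-05) and rho = 0.88 (adjusted p = 5e-05). Without the 2 libraries farthest from the median r was 0.89, and within series it was 0.91 in decimal and 0.93 in E21DCD libraries. In the 11 reassigned libraries it was 0.80. Scn2a and Scn1a, 769 kb apart, had r = 0.62 and rho = 0.56 (adjusted p = 2e-05 and 5e-05 by permutation), with 0.62 without the 2 farthest libraries and 0.62, 0.73 and 0.76 within the decimal, E21DCD and reassigned libraries. Cacna2d3 and Cacna1d had r = 0.48 and rho = 0.34 (adjusted p = 2e-05 and 0.000417 by permutation), and r = 0.38 without the 2 farthest libraries. Within series that pair gave 0.55 in decimal, 0.33 in E21DCD and -0.18 in the 11 reassigned libraries. Of the 10 pairs, 6 passed by both measures. The other 4 were Scn1a with Scn9a, Cacng4 with Cacng5, and Cacng6 with either neighbour. These tests compare a correlation with 0, not with that of genes lying apart. The highest r of any 2 channel genes was 0.92, for Cacna1b and Cacna1d, on chromosomes 3 and 16. Cacna2d3 had r = 0.68 with Scn3b, on chromosome 8, above its r with Cacna1d. The part of position in these correlations was not tested.

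Neighbouring gamma genes did not share one direction. Cacng8 and Cacng7, 55.7 kb apart, had r = -0.52 and rho = -0.37 (adjusted p = 2e-05 and 0.00016 by permutation), and r = -0.42 without the 2 farthest libraries. Within series r was -0.65 in the 56 decimal and 0.06 in the 45 E21DCD libraries, so the relation did not hold in the latter. In the 11 reassigned libraries it was 0.18. Cacng4 and Cacng5, 123.8 kb apart, had r = 0.15 and rho = 0.14 (adjusted p = 0.128 and 0.17 by permutation). For this pair r was 0.40 in decimal, -0.43 in E21DCD and 0.67 in the 11 reassigned libraries. The difference between series was not tested for either pair. Across all 496 pairs of the 32 genes the median r was 0.31 and 164 were below 0, as a description over libraries that share depth and tissue makeup.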

How the data were processed

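Poly(A) RNA-seq of 130 libraries was used. Per the submitters' processing notes the authors ran kallisto 0.48; genome build and annotation are not given in the sources used here. The deposited values, per the file header and the values themselves, are log2 of kallisto's estimated count plus 1, not scaled for depth. They were turned back to estimated counts, scaled to a library total of 1000000 (totals before scaling were 15.1 to 55.95 times that), and taken as log2(value + 1), so differences of low genes are understated. Genes with a mean of at least 1 were tested (15150). Gene spans came from RefSeq genes of GRCr8.

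Libraries were classed by Drd2 (limit 6) and Gad2 (limit 4.7) and classes compared by range, with no test. Differences between identifier series and slopes on Mbp, Pvalb and Tle4 (with the identifier group as a term) were fitted with limma 3.58.1 in R 4.3.3, moderated with a trend, two-sided, over the 112 cortical libraries, and the procedure was tested on simulated data. Scripts used Python 3.11.15 with numpy 2.4.6, pandas 2.3.3, scipy 1.17.1 and matplotlib 3.10.9. Alternatives were median-of-ratios scaling, a pseudocount of 0.1, all genes above 0 or a mean of at least 3, depth as a covariate, other Gad2 limits and other sets of libraries. The member genes, marker lists and partner lists were chosen with earlier results of these data known. Any member could be named, with all class values for those whose ranges did not overlap or whose difference was among the 8 largest, and at most 3 partner genes per direction. Replicate numbers follow accession order and pair nothing. Counts over the 32 genes include 2 that are not reported singly here.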

Additional observations from a re-analysis of the deposited data

Results flagged for a closer look

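In the 7 low-Gad2 libraries, 14 of 30 channel genes had 1 library far from the other 6 (a gap beyond the critical value of Dixon's test), where chance flags about 1 gene in 20 and 34.5% of all genes tested were flagged in the same libraries. In 13 of the 14 the library was decimal replicate 15, the lowest each time, as it was in 30.4% of all genes tested. Its pore-forming genes were Cacna1a at 5.71, Cacna1b at 4.53, Cacna1c at 4.17, Cacna1d at 3.58, Cacna1g at 4.26, Scn1a at 3.55, Scn2a at 6.31 and Scn8a at 6.05. Its accessory genes were Cacna2d2 at 3.83, Cacnb4 at 5.31, Cacng4 at 4.60, Cacng7 at 4.73 and Cacng8 at 2.62. This library gave 15.1% of its counts to a single gene. The remaining value was a high one, Cacng6 at 1.76 in E21DCD replicate 19.

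The slope on Mbp differed between decimal and E21DCD libraries (101 cortical libraries, limma, two-sided, decimal minus E21DCD) for 6 of the 32 genes. The differences were 0.13 for Cacng4 (adjusted p = 6.25e-05), -0.14 for Scn3b (adjusted p = 0.00167), -0.13 for Cacng8 (adjusted p = 0.00239), -0.0789 for Cacnb1 (adjusted p = 0.00492), -0.10 for Cacng3 (adjusted p = 0.0068) and 0.10 for Cacng7 (adjusted p = 0.0124). The same test over all genes called 3566 of 15149.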

How the results depend on the processing

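The series difference changed with the libraries entered and with marker levels as covariates. The count of channel genes called was 22 in the 112 cortical libraries, 1 with the low-Gad2 libraries included, 7 with all 130 libraries, 1 with Mbp and 4 with Pvalb as a covariate. Over all genes, 5268 calls became 1500 with the low-Gad2 libraries, 884 with Mbp and 1938 with Pvalb as a covariate. Among the channel genes called in the cortical libraries, with all 130 libraries the sign turned for Cacna1h (0.11), Cacna2d2 (0.13), Cacnb2 (0.0407), Cacng2 (-0.0342), Cacng8 (0.029), Scn2b (0.0338) and Scn3b (0.0509). With Mbp as a covariate it turned, among the called genes, for Cacng8 (0.0012) and Scn3b (0.0099). Signs of some genes that were not called turned too, among them Cacna2d3, which went from -0.05 to 0.23 and was called with all 130 libraries (adjusted p = 0.0232). Including the low-Gad2 libraries turned the Pvalb slope of Cacng2 (-0.0942) and the Tle4 slopes of Cacna1h (0.74) and Cacna2d3 (0.13). The count of channel genes called for Tle4 went from 4 to 1 in decimal libraries alone and to 23 with the low-Gad2 libraries. Over all genes, Mbp slopes were called for 4468 genes in E21DCD libraries alone against 8168, and Pvalb slopes for 4143 in decimal libraries alone and 10818 with the low-Gad2 libraries, against 6350. Tle4 slopes were called for 653 in E21DCD libraries alone, 609 in decimal libraries alone and 9024 with the low-Gad2 libraries, against 1400. Fewer libraries entered the fits within 1 series; the cause of the other shifts was not tested. The count of 8 genes with low-Gad2 ranges below the cortical range was 5 with median-of-ratios scaling and 1 with a Gad2 limit of 4, and that 1, Cacng8, is not among the 8. Over all genes tested, 949 became 627 with that scaling and 297 with that limit. Without decimal replicate 15 the same 8 genes were below, beside 984 of all genes tested. The 20 series calls examined gene by gene kept their direction and side of the threshold under median-of-ratios scaling and a pseudocount of 0.1. With depth as a covariate 3 of the 20 kept their direction but no longer passed. With all genes above 0 tested, 2 of the 20 no longer passed. Genes near the mean limit, such as Scn4a and Cacng6, have few counts and the least precise levels. No paired analysis was possible because the replicate numbers follow accession order.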
